A study of Mus musculus with 14 samples.

Results

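The cells described here were dividing cells of the embryonic mouse hindbrain at day E14.5 that carried transcripts of Pax6 and Barhl1, a pair of transcription factors of the granule cell lineage, and none of the hindbrain segment genes Hoxb2, Hoxb3, Hoxb4 and Hoxb5. They were chosen on raw counts of unique molecular identifiers (UMIs, each standing for 1 captured RNA molecule). A cell needed at least 2 UMIs of Pax6, at least 1 of Barhl1, 0 summed over the 4 Hoxb genes and at least 2 summed over Mki67 and Top2a, and it had to have at least 1000 detected genes and under 10% mitochondrial UMIs. The rule took 2078 of the 49696 kept cells of the 6 E14.5 libraries (4.18%), and the whole series held 122658 kept cells in 14 libraries. The 8 genes of the rule set the membership, so their levels are given as description only.

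Cerebellar granule cells are made from progenitors that leave the upper, rostral part of the rhombic lip, a dorsal strip of neuroepithelium beside the roof plate of the hindbrain, and that go on dividing in the external granule layer. These progenitors express Atoh1, the gene of a helix-loop-helix transcription factor without which they do not form, and they later divide in response to Sonic hedgehog released by Purkinje cells. Hox genes mark the hindbrain behind the cerebellum, so progenitors from the caudal rhombic lip, which gives rise to pontine and other precerebellar neurons, carry Hox transcripts and cerebellar ones do not.

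The series asked what partial loss of Atoh1 function does to cells of the Atoh1 lineage. Control embryos were Atoh1 Cre/+; Rosa lsl-tdTomato/+ and mutant embryos, labelled Atoh1S193A/-, were Atoh1 Cre/S193A; Rosa lsl-tdTomato/+, with the S193A allele changing a serine of the protein to alanine and acting as a hypomorph. Both genotypes thus carried the Cre knock-in, which is a null allele of Atoh1, and a Cre-dependent tdTomato reporter, so that a control embryo had 1 functional copy of Atoh1 and a mutant embryo had only the hypomorphic copy. Each of the 3 control and 3 mutant libraries at E14.5 came from the hindbrain of 1 embryo on the C57BL/6J background, paired by number with a littermate of the other genotype, and held living cells sorted for tdTomato. The sort keeps cells in which Cre had acted, whether or not they still made Atoh1, and counts from the 3′ ends of transcripts cannot tell the S193A transcript from the normal one. The E18.5 libraries (3 per genotype) had the same design and serve below for a comparison of stages.

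The E14.5 libraries held 121762137 to 193872318 UMIs each, and the cells of the rule had medians of 22358 to 28218.5 UMIs, 4898 to 5721 genes and 3.20 to 3.90% mitochondrial UMIs per cell. Within each littermate pair the mutant cells were the deeper ones. Of the 2076 distinct barcodes of these cells, 2 occurred in more than 1 library, which leaves nearly no cells that libraries could share. At the edges of the rule, 219 of the 2078 cells had exactly 2 UMIs of Mki67 and Top2a together and 593 otherwise fitting cells had 1. In the same way, 196 cells had 1 UMI of Barhl1 and 771 otherwise fitting cells had 0, 50 had 2 UMIs of Pax6 and 25 had 1, and 506 otherwise fitting cells were left out for a single Hoxb UMI. A doublet score (Scrublet) placed 160 of the 2078 cells among the highest-scoring 7.5% of their libraries, 5.39 to 8.19% of the cells in 5 libraries and 17.8% in mutant embryo 2.

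Several markers of the granule lineage that the rule did not use, but not all of those checked, were found in most of the cells. In cells thinned to 8000 UMIs each, so that depth did not set the shares, a median of 61.7% of the cells per library (range 48.5 to 69.8%) had a UMI of Atoh1, against 11.7% of postmitotic neurons from the same libraries (cells with at least 3 UMIs of Mapt and none of Mki67 or Top2a), which give the share in another cell type of the same libraries, from free RNA and from their own transcripts. Zic1, a zinc finger factor of dorsal hindbrain progenitors, was found in 98.6% against 58.2%, Ccnd2, the cyclin that carries cells into S phase, in 94.0% against 8.34% of these neurons, which were picked as non-dividing, and Neurod1, a differentiation factor of granule cells, in 67.0% against 27.7%. Meis1, also of the granule lineage list, was found in 65.7% against 66.8%. Of the other markers checked, Zic2 was found in 80.3% against 39.4%, Mycn in 46.9% against 19.1%, En2 in 32.0% against 17.3% and En1 in 17.6% against 14.6%. Cntn2 went the other way, in 23.4% of the cells against 32.2% of neurons. Not all of these set the cells apart from the Hox-positive dividing cells (the same rule but with at least 2 Hoxb UMIs), where Atoh1 was found in 65.2%, Zic1 in 96.9%, Neurod1 in 34.5%, Ccnd2 in 53.7% and Meis1 in 72.2%, and where the granule lineage list summed to a mean of 5494 CPM in controls against 5147 CPM here. The unthinned medians were 86.6% for Atoh1 (20.9% in neurons), 98.2% for Ccnd2 and 80.1% for Neurod1. The reporter cassette was detected through its WPRE element in 93.0% of the thinned cells.

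Single markers of 3 other cell types were at or near 0, and the choroid plexus marker Ttr was not, with a UMI in a median of 25.8% of thinned cells (range 8.82 to 79.6%). Ptf1a, which defines the inhibitory lineage of the cerebellum, had a median share of 0.096%, and Cldn5 of endothelium and Ptprc of blood cells had medians of 0.00%. Ptf1a was as rare in neurons (0.044%), so it does not set the cells apart. Globin transcripts of blood were not near 0 in mutant embryo 1, as given below. Hox genes outside the rule were also low, with Hoxa2 in 1.75%, Hoxa3 in 0.77% and Hoxd3 in 0.175% of thinned cells, against 23.6%, 21.7% and 7.5% of neurons. Markers that are not specific to granule progenitors were nevertheless shared by many of the cells. Eomes, a T-box factor of unipolar brush cell precursors, was found in 33.1% against 4.95% in neurons, and the postmitotic marker Stmn2, which encodes a tubulin-binding protein of growing axons, in 74.2% against 99.9%. Progenitor and glial markers were shared too, with Fabp7 in 49.6% against 12.3% in neurons and Sox2 in 30.3% against 4.55%. Hes5 was found in 29.9% against 4.89%, Sox9 in 21.0% against 5.42% and Hes1 in 17.6% against 3.63%. The rhombic lip gene Wls was found in 45.7% against 7.10%. Barhl2, the paralogue of Barhl1 and itself a gene of the granule lineage list, was found in only 12.7% against 9.41%. The cells are therefore called granule progenitor-like here.

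Levels are given below as CPM, the UMIs of a gene per 1e6 UMIs of the same cells of a library, and they are compared between groups of cells for 1 gene at a time. Atoh1 stood at 178, 149 and 111 CPM in control embryos 1 to 3 and at 189, 174 and 143 CPM in their mutant littermates. The mutant was higher in 3 of 3 pairs while the groups overlapped. The log2 difference was 0.19 ± 0.17 (SE) in the fit without the pairs. Atoh1 passed the test neither without nor with the pairs (edgeR quasi-likelihood test, adjusted p = 0.314 in the paired fit). Barhl1, a rule gene and a known target of ATOH1, stood at 366, 313 and 299 CPM in controls and 268, 157 and 228 CPM in mutants. These ranges did not touch, but no test is given because cells without a Barhl1 UMI had been left out. Pax6, the other lineage gene of the rule, ranged from 532 to 652 CPM in controls and from 537 to 613 CPM in mutants.

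The cells' share was 3.76, 1.93 and 5.46% of the kept cells of control embryos 1 to 3 and 5.75, 1.29 and 6.76% of those of mutant embryos 1 to 3. Both embryos of litter 2 were the lowest of their genotype. The means were 3.72% ± 1.76 (SD, n = 3) and 4.60% ± 2.91 (SD, n = 3), a difference of 0.882 percentage points that was smaller than the spread between embryos (exact two-sided permutation test, p = 0.7, where 0.1 is the smallest p that 3 against 3 can give; exact sign-flip test over pairs, p = 0.5, smallest possible 0.25). The difference turned to -0.0109 points without control embryo 2, to -0.198 without mutant embryo 3 and to -0.858 when the 2 control libraries made with the older Cell Ranger version were left out. Membership needed a Barhl1 UMI, and Barhl1 was lower in the mutants. The 771 otherwise fitting cells without a Barhl1 UMI were not split by genotype. The part of this in the shares and in the comparisons of genotypes below was not tested.

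The share of Hox-negative Pax6 and Barhl1 cells that were dividing was 29.2, 30.6 and 34.1% in controls and 36.0, 25.1 and 44.6% in mutants. It was higher in the mutant by 6.78 points in pair 1 and 10.5 points in pair 3 and differed by -5.47 points in pair 2. The means of 31.3% ± 2.51 and 35.2% ± 9.75 (SD, n = 3 each) differed by 3.94 points (exact two-sided permutation test, p = 0.6). When the rule was applied to cells thinned to 8000 UMIs the difference was 0.341 points, and without mutant embryo 3 it was -0.740 points. By the same counting, Hox-positive cells (at least 2 Hoxb UMIs) divided at 6.11, 8.91 and 8.97% in controls and at 13.2, 9.03 and 14.7% in mutants (exact two-sided permutation test, p = 0.1). The pairs differed by 7.09, 0.120 and 5.69 points. This Hox-positive share was not counted on thinned cells, so the part of depth in it was not tested.

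**Figure D1:**
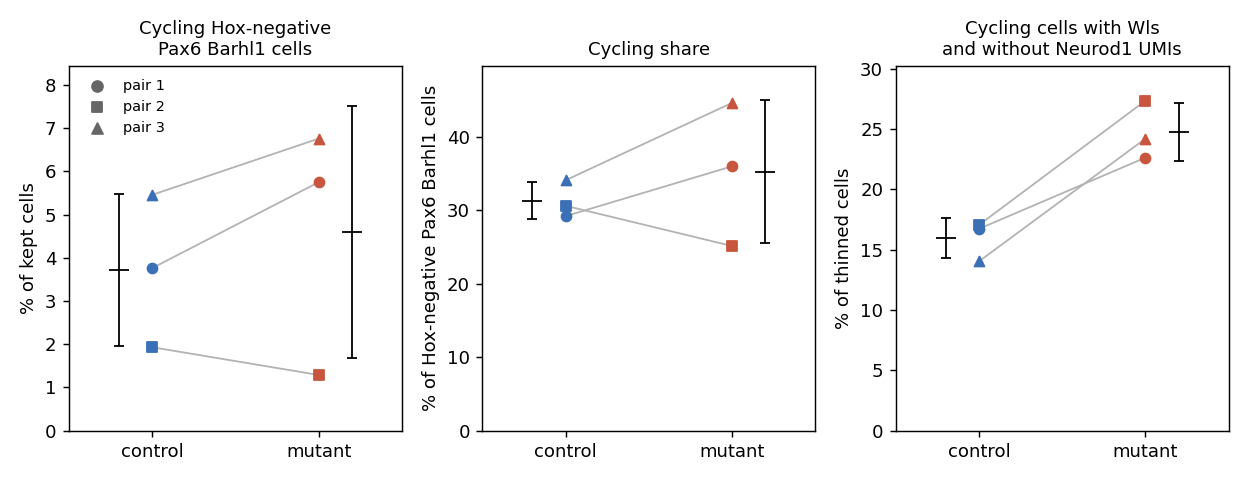
Share of kept cells that met the rule (left, %), share of Hox-negative Pax6 and Barhl1 cells that were dividing (middle, %) and share of the thinned granule progenitor-like cells with a Wls UMI and no Neurod1 UMI (right, %), with 1 point per embryo, grey lines joining littermates, and black marks for the mean and SD of 3 embryos. The groups overlap in the left and middle panels, and in the right panel the controls lie between 14.0 and 17.1% and the mutants between 22.6 and 27.4%.

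The embryos numbered 2, taken as litter 2, had the fewest of these cells, and they stood apart in the genes given here. These genes were picked after their values had been seen. How many of all genes set this pair, or another, apart was not counted. Deviations from the group means correlated between same-numbered embryos at 0.447, 0.576 and 0.583 for numbers 1 to 3. Shared shifts were thus not particular to litter 2. Tlx3, a homeobox gene of granule progenitors, was at 2.41 and 0.651 CPM in the control and mutant of litter 2 and between 24.9 and 54.2 CPM in the other 4 embryos. Ntf3, a neurotrophin made by granule progenitors, was at 0.876 and 0.651 CPM against 12 to 20.8 CPM. Wnt1, a signal of the rhombic lip, went the other way, with 28.3 and 40.1 CPM against 7.31 to 16.5 CPM, and so did Meis2, with 138 and 188 CPM against 45.4 to 75.3 CPM. Both embryos numbered 2 shared each of these shifts. A shared litter and a shared preparation or run cannot be told apart here.

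Ttr, which encodes transthyretin and is made in bulk by the choroid plexus, stood at 876, 765 and 119 CPM in controls and 340, 652 and 2314 CPM in mutants. In neurons of the same libraries Ttr ranged from 208 to 2638 CPM, with the highest value in the same library, mutant embryo 3. In dividing cells without Pax6, Barhl1 or Hoxb UMIs it ranged from 25477 to 85790 CPM. The 20 genes of blood, vessels and connective tissue summed to 13.0 to 45.4 CPM in 5 libraries and to 661 CPM in mutant embryo 1, where the globin gene Hbb-bs reached 362 CPM against 0.977 to 11.2 CPM elsewhere. The part of these transcripts in the results was not tested.

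Markers of the rhombic lip and of later granule precursors were unevenly shared among the cells. Wls, which marks the interior rhombic lip and is needed for the release of Wnt proteins, and Neurod1 were used to part them, a split chosen after values of these genes had been seen. Unthinned Wls-only cells numbered 24 to 56 per control and 24 to 121 per mutant embryo. Neurod1-only cells numbered 50 to 210 and 14 to 141. Cells with Wls and no Neurod1 had Atoh1 at 164 to 265 CPM in controls and Gap43, a growth cone protein, at 72.4 to 162 CPM. Cells with Neurod1 and no Wls had Atoh1 at 86.4 to 115 CPM and Gap43 at 1261 to 1540 CPM. Sox2, a factor of neural stem cells, ran from 82.5 to 117 CPM in the first group to 17.0 to 28.5 CPM in the second, and Hes1, a Notch effector, from 123 to 193 CPM to 3.00 to 21.3 CPM. Eomes was found on the Neurod1 side, at 97.4 to 111 CPM in Neurod1-only and 1.64 to 12.9 CPM in Wls-only cells. The controls held 13.7, 14.0 and 10.6% Wls-only cells and the mutants 21.7, 22.4 and 21.2%, and after thinning the shares were 16.7, 17.1 and 14.0% against 22.6, 27.4 and 24.2%. The ranges did not overlap at either depth, and the thinned means differed by 8.79 points (exact two-sided permutation test, p = 0.1, the smallest possible). Neurod1-only cells made up 46.4, 45.3 and 54.2% of the thinned cells in controls and 40.0, 21.7 and 37.9% in mutants (difference -15.5 points, exact two-sided permutation test, p = 0.1). Without thinning the groups overlapped, at 29.9, 29.2 and 39.6% against 30.9, 13.1 and 24.3%, and the mutant was the higher one in pair 1 (difference -10.2 points, exact two-sided permutation test, p = 0.3). Because the split was chosen after values of Wls and Neurod1 had been seen, the p values of these shares are no independent support.

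The genotypes were then compared gene by gene on UMIs summed per embryo, over the 10358 genes with a UMI in 10% or more of these cells in either genotype. Calls needed both criteria: a gene was counted when its adjusted p was under 0.05 and its log2 difference was over 0.25 in size (edgeR quasi-likelihood test, Benjamini-Hochberg adjustment over all genes tested). Without the litters in the fit no gene was called (0.0%), with 323 genes at an unadjusted p under 0.05, and DESeq2 called 13 genes, 5 of them higher and 8 lower in the mutant. With the littermate pairs in the fit 50 genes were called (0.483%), 27 higher (0.261%) and 23 lower (0.222%). Among those called higher, Cdh20, S100a6, Prss23, Pdlim3, Barx2 and Bfsp2 passed the 10% filter only through the mutants. Drd1, called lower, passed it only through the controls. Their calls are no independent support, and the counts and shares of called genes here and below include them. The paired count moved with the litters used, to 238 without pair 1, 34 without pair 2 and 247 without pair 3. All values of adjusted p below are from edgeR and the paired fit unless the unpaired fit is named. None of the 50 genes called with the pairs was called by edgeR over all 6 embryos without the pairs. DESeq2, also without pairs, called Rab15, Kctd8, Sez6l, Diras2, Gap43, Selenom, Npnt, Dll1, Bfsp2 and Pmp22 among them, and edgeR called Rab15 when control embryo 3 was left out. Many paired calls also rested on pair 2 or on cell numbers: of the 51 genes named or called, 22 were called without pair 2, 45 without pair 3 and 22 with equal numbers of cells per library. Among the genes described below, Sez6l, Kcnk9, Stmn2, Nefl, Sox2, Id2 and Ackr3 were not called without pair 2, Kcnk9 and Stmn2 not without pair 3, and Diras2, Kcnk9, Npnt, Nefl, En1, Wnt5a and Cxcl14 not with equal cells. Bfsp2 was not tested without pair 1 or pair 2.

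Rab15 fell the most. It encodes a small GTPase of the recycling of endosomes and spans chr12:76797960-76822908 on the minus strand of GRCm38. It stood at 63.0, 73.6 and 31.9 CPM in controls and at 12.4, 16.3 and 9.63 CPM in mutants, so that every mutant lay below every control. Its log2 difference was -2.08 ± 0.13 (SE; edgeR, adjusted p = 0.000147), and in the unpaired fit it was -2.20 ± 0.30 (edgeR, adjusted p = 0.24). The fall was seen on either side of the Wls and Neurod1 split, with 52.1, 39.5 and 30.4 CPM in control and 9.29, 10.7 and 3.80 CPM in mutant Wls-only cells, and 75.5, 82.4 and 35.7 CPM against 17.2, 45.8 and 17.0 CPM in Neurod1-only cells, where the mutant was again lower in 3 of 3 pairs. The Neurod1-only groups overlapped, and mutant embryo 2 held only 14 of these cells.

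Kctd8, which encodes an auxiliary subunit of GABA-B receptors (chr5:69109285-69341679, minus strand), was at 18, 14.2 and 13.2 CPM in controls and 6.35, 4.56 and 6.14 CPM in mutants. Its log2 difference was -1.36 ± 0.16 (SE; edgeR, adjusted p = 0.00891). Sez6l, a transmembrane protein of neurons, fell from 23.8, 26.1 and 27.2 CPM to 10.8, 11.4 and 16.3 CPM (edgeR, adjusted p = 0.0138). Diras2, a Ras-family GTPase, fell from 31.8, 29.6 and 31.1 CPM to 18.6, 16 and 18.6 CPM (edgeR, adjusted p = 0.0113), and the potassium channel gene Kcnk9 from 11.4, 12.9 and 14.7 CPM to 7.04, 7.49 and 7.16 CPM (edgeR, adjusted p = 0.0472). In the unpaired fit the edgeR adjusted p was 0.24 for Kctd8, 0.837 for Sez6l, 0.372 for Diras2 and 0.847 for Kcnk9. In each of them the 3 controls lay above the 3 mutants. Groups that did not overlap were seen for 7.66% of all genes tested, 3.06% with the mutant lower and 4.6% with it higher.

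Npnt, which encodes the extracellular matrix protein nephronectin (chr3:132881745-132950291, minus strand), rose from 23.3, 21.9 and 17.6 CPM in controls to 40.4, 41.7 and 41.8 CPM in mutants. Its log2 difference was 0.99 ± 0.11 (SE; edgeR, adjusted p = 0.00746). Dll1, a Notch ligand that differentiating progenitors present to their neighbours (chr17:15367354-15376872, minus strand), rose from 25.6, 16.9 and 16.2 CPM to 45.3, 37.8 and 42.1 CPM (log2 difference 1.11 ± 0.12, SE; edgeR, adjusted p = 0.00607). Bfsp2, a filament protein best known from the lens, rose from 2.97, 2.41 and 1.64 CPM to 10.8, 9.77 and 6.20 CPM (edgeR, adjusted p = 0.00607). It had a UMI in 3.18% of control and 10.1% of mutant cells, so it entered the test only through the mutants, where it is high, and its p is no independent support. In the unpaired fit the edgeR adjusted p was 0.24 for Npnt, 0.345 for Dll1 and 0.324 for Bfsp2. Dll1 was higher in the mutant of each pair on both sides of the split, at 70.5, 65.8 and 66.9 CPM against 52.1, 36.2 and 25.1 CPM in Wls-only cells and at 23.8, 9.16 and 15.1 CPM against 13.4, 5.25 and 9.15 CPM in Neurod1-only cells. The Neurod1-only groups overlapped, and mutant embryo 2 held only 14 of these cells, so its value there rests on few UMIs. Over all the granule progenitor-like cells the groups of embryos did not touch for Npnt, Dll1 and Bfsp2, as for 4.6% of all genes in that direction.

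ATOH1 and its relatives bind the E-box, a motif of a few bases, and the promoters of 4 called genes described above, 2 lower and 2 higher in the mutant, are shown so that the reader can see where such letters lie. The 300 bases around the most upstream start that RefSeq gives each gene (GRCm38.p6, all 4 on the minus strand, printed 5′ to 3′ along the gene) are chr12:76822475-76822774 for Rab15, chr5:69341660-69341959 for Kctd8, chr3:132950242-132950541 for Npnt and chr17:15376883-15377182 for Dll1. These starts are not all those of the GENCODE spans given above: the Rab15 window lies inside the GENCODE span, and the Dll1 window lies wholly upstream of it. Capitals mark CAGCTG, which reads the same on both strands. CAGATG and its reverse CATCTG were searched for too, on both strands, and are not the same letters as CAGCTG.
Rab15: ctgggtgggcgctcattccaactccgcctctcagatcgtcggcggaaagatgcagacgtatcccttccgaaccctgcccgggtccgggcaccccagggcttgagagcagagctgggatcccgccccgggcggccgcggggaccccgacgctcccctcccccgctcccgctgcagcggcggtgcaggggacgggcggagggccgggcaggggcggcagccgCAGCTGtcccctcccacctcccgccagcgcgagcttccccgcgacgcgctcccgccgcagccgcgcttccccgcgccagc
Kctd8: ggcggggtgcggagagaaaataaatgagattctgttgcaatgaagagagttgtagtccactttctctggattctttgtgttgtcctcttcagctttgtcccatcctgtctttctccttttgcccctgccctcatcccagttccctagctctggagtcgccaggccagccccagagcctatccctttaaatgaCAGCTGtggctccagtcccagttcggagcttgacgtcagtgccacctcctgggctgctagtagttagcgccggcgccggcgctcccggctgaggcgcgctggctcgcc
Npnt: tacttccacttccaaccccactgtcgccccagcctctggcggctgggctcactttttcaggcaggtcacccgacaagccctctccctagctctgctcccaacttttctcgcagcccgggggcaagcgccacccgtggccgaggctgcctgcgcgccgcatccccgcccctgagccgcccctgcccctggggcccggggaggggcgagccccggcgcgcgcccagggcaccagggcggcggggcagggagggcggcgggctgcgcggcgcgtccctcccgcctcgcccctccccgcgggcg
Dll1: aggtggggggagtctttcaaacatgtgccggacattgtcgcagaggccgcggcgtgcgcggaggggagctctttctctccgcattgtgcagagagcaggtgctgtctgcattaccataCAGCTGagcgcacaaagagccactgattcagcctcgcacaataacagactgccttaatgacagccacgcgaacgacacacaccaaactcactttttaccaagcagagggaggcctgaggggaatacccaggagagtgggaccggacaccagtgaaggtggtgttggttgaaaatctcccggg
CAGCTG occurred once in Rab15, Kctd8 and Dll1 and not in Npnt. Of the 10 genes with the smallest p in the unpaired fit, 8 were matched to a promoter, of which 4 held CAGCTG and 0 held CAGATG or CATCTG, against 16.1% and 17.3% of 27025 promoters of the same length. These matches describe the letters only.

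**Figure D2:**
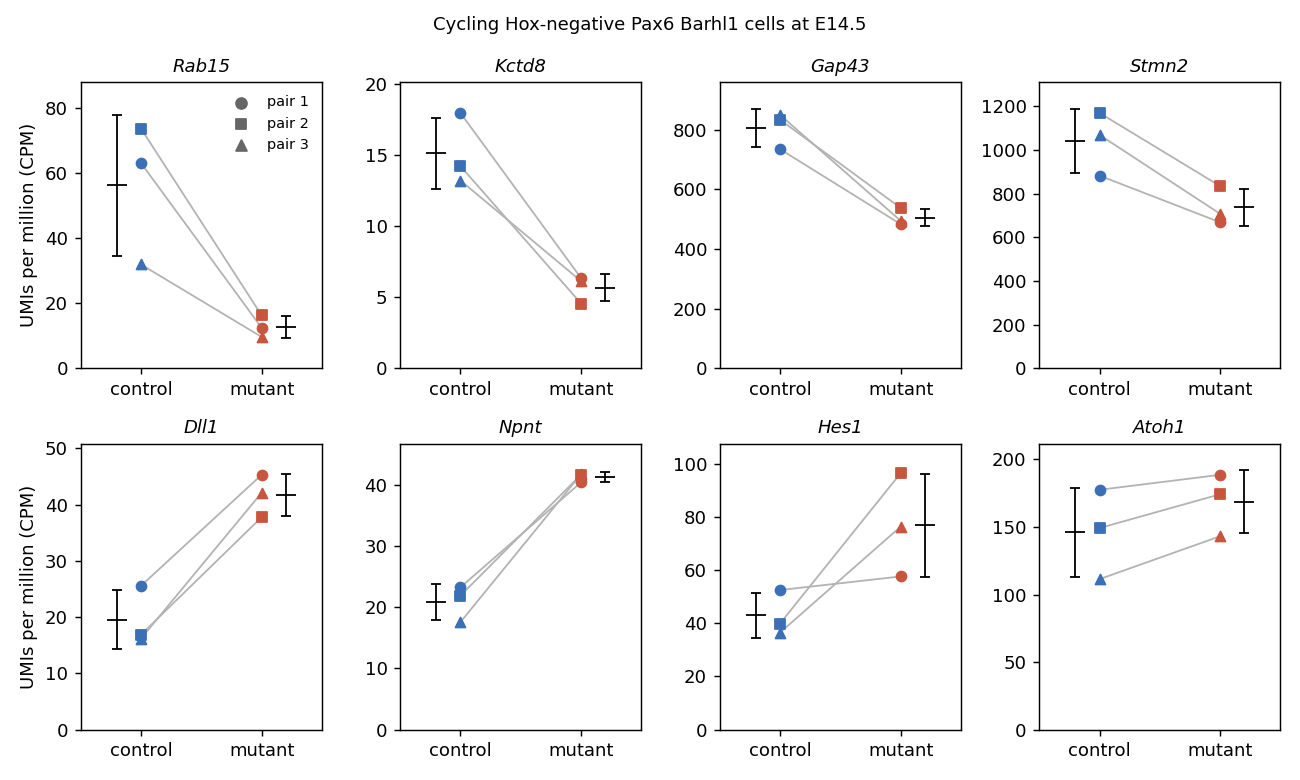
Levels in CPM (linear axes from 0) of 8 genes in the granule progenitor-like cells of each embryo, with grey lines joining littermates and black marks for the mean and SD of 3 embryos. Rab15, Kctd8, Gap43 and Stmn2 are lower in every mutant than in every control, Dll1, Npnt and Hes1 are higher, and for Atoh1 the groups overlap between 143 and 178 CPM.

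Of 24 tested genes of neuronal maturation 3 were called, all lower in the mutant (all genes: 0.222% lower), and 21 had a log2 difference below 0. The list's median log2 difference was -0.27 (median of all genes 0.00 in the same fit). The summed level of the list overlapped between genotypes, at 4947, 6784 and 5426 CPM in controls and 4027, 6329 and 3958 CPM in mutants, and was lower in the mutant of each pair. Gap43 stood at 735, 834 and 850 CPM in controls and 484, 538 and 495 CPM in mutants, a log2 difference of -0.70 ± 0.08 (SE; edgeR, adjusted p = 0.00891, and 0.345 in the unpaired fit). Stmn2 stood at 882, 1169 and 1069 CPM against 668, 834 and 707 CPM (edgeR, adjusted p = 0.0344). The neurofilament gene Nefl, at 137, 286 and 131 CPM against 75.8, 235 and 97.1 CPM, was lower within each pair while the groups overlapped (edgeR, adjusted p = 0.0344). In the unpaired fit Stmn2 and Nefl both had an edgeR adjusted p of 1.00. Mapt, Tubb3, Dcx and Neurod1 were measured and not called, with log2 differences of -0.22, -0.30, -0.32 and -0.15. Within Wls-only cells Gap43 overlapped between genotypes, at 99.0, 72.4 and 162 CPM in controls and 82.9, 124 and 72.4 CPM in mutants, and within cells with both Wls and Neurod1 UMIs it did not, at 629, 660 and 743 CPM against 410, 539 and 436 CPM. In Neurod1-only cells it overlapped again, at 1309, 1540 and 1261 CPM against 957, 1362 and 1061 CPM, and was lower in the mutant of each pair. The share of Wls-only cells, given above, moved with these levels, and its part in them was not tested.

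Of the 8 tested genes of the rhombic lip and roof plate list 1 was called, and it was higher in the mutant (all genes: 0.261% higher). All 8 fitted log2 differences were positive, with a median of 0.44, but Ttr, a member, was lower in the mutant of pairs 1 and 2 and higher in that of pair 3, as given above, and the summed level of the 18 listed genes, untested ones included, was lower in the mutant of pair 1 (1473 against 1033 CPM) and higher in those of pairs 2 and 3 (1264 against 1601 and 529 against 2865 CPM). The called gene was Pax3, a dorsal patterning gene, at 197, 133 and 182 CPM in controls and 282, 217 and 247 CPM in mutants (log2 difference 0.53 ± 0.07, SE; edgeR, adjusted p = 0.0143, and 1.00 in the unpaired fit). Wls itself, at 115, 120 and 81.7 CPM against 130, 282 and 141 CPM, and Msx1, at 60.1, 35.1 and 21.6 CPM against 66.5, 76.2 and 31.2 CPM, were higher in all 3 pairs and not called. Of 12 ventricular and glial progenitor genes 10 were above 0 (median 0.22) and 1 was called, Sox2, at 44.2, 53.5 and 37.7 CPM against 57.9, 81.1 and 60.8 CPM (edgeR, adjusted p = 0.0344, and 1.00 in the unpaired fit). The summed level of the 19 genes on the ventricular and glial list, untested ones included, was 2460, 2210 and 2009 CPM in controls and 2354, 2103 and 2315 CPM in mutants, lower in the mutant of pairs 1 and 2.

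In the Notch pathway, which keeps progenitors from differentiating, Dll1 was the gene called among 21 tested (all genes: 0.261% higher). The receptor gene Notch1 (29.9, 26.3 and 33.3 CPM in controls, 48.8, 39.1 and 42.3 CPM in mutants) and the effector Hes1 (52.5, 39.9 and 36.5 CPM against 57.6, 96.4 and 76.3 CPM) did not overlap between genotypes and both missed the threshold (edgeR, adjusted p = 0.0755 for each). Numb, an inhibitor of Notch signalling, did not overlap in the other direction (17.8, 18.6 and 17.9 CPM against 16.0, 15.3 and 15.9 CPM; edgeR, adjusted p = 0.561). Over all genes, 4.6% lay higher and 3.06% lower without overlap. The effector Hes5 was at 144, 59.8 and 99.7 CPM in controls and 197, 93.5 and 296 CPM in mutants, higher in 3 of 3 pairs (edgeR, adjusted p = 0.0597). The other ligands and modulators measured, among them Jag1, Dll3 and Rbpj, had log2 differences between -0.29 and 0.65 and were not called.

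Among other called genes was En1 of the rostral hindbrain list, where 6 of 12 tested genes lay above 0 and 6 below, with a median of 0.00, and 1 was called (all genes: 0.222% lower). En1, an engrailed gene of the midbrain and rostral cerebellum, was at 34, 51 and 38.8 CPM in controls and 20.0, 34.8 and 25.1 CPM in mutants (edgeR, adjusted p = 0.0157). Barx2, a homeobox gene of the granule lineage list, was at 15.5, 0.876 and 10.5 CPM against 56.3, 9.44 and 32.8 CPM (log2 difference 1.82 ± 0.16, SE; edgeR, adjusted p = 0.00222), and it was the member called among 31 tested in that list (all genes: 0.261% higher). It too passed the 10% filter only through the mutants, with a UMI in 9.66% of control and 25.4% of mutant cells, and its p is no independent support. Id2, an inhibitor of helix-loop-helix factors, was lower (305, 400 and 205 CPM against 166, 279 and 160 CPM; edgeR, adjusted p = 0.029). Wnt5a, Cxcl14 and Ackr3, genes of secreted signals and of a chemokine receptor, had log2 differences of 0.89, 0.88 and 0.91. Mutant and control embryos overlapped for all of these genes, and the calls rest on the differences within pairs. In the unpaired fit each had an edgeR adjusted p of 1.00.

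Cell cycle genes showed small shifts of which none was called. Of 45 S phase genes 31 had a log2 difference above 0, and in 6 the mutants lay above the controls without overlap (all genes: 4.6%). Their median log2 difference was 0.09. Of 51 genes of G2 and mitosis 45 were below 0, with a median of -0.16, and in 9 the mutants lay below the controls without overlap (all genes: 3.06%). When the rule was applied after thinning, the medians were 0.18 and -0.10, and the depth of the mutant cells, which was higher in each pair, moved with these shifts. The cyclin genes Ccnd1 (log2 difference 0.30 ± 0.13, SE) and Ccnd2 (-0.14 ± 0.08, SE) and the 15 tested genes of the Sonic hedgehog pathway (median 0.01) were not called.

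**Figure D3:**
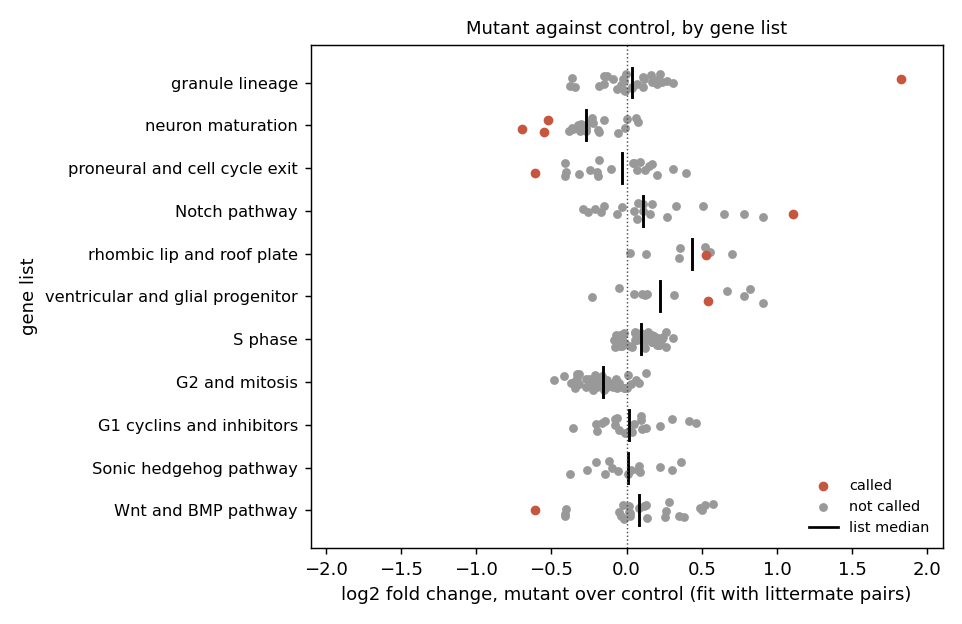
Log2 fold change of mutant over control in the fit with littermate pairs (x axis) for the genes of 11 lists (y axis), with 1 point per gene, called genes in red and a black bar at each list's median. The neuron maturation list lies mostly left of 0 with a median of -0.27, and the rhombic lip and roof plate list lies right of it with a median of 0.44.

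Dividing Pax6 and Barhl1 cells with at least 2 Hoxb UMIs (864 cells in the same 6 libraries) are the nearest population by the rule, and the values against them describe the cells and were not tested. Among 3472 genes at 50 CPM or more, 868 (25.0%) were higher and 763 (22.0%) lower in the Hox-negative cells of all 6 libraries. Besides the Hox genes, the Hox-negative cells had far less Crabp1, a retinoic acid binding protein, with 15.1 ± 2.50 CPM against 858 ± 548 CPM (SD, n = 6), and less Kitl, Robo3 and Zfp503. They had more Cartpt (95.2 ± 58.7 against 27.0 ± 31.1 CPM), Eomes (83.6 ± 15.4 against 30.1 ± 10.5 CPM), Neurod1 (422 ± 66.0 against 160 ± 33.4 CPM), the engrailed gene En2 (59.5 ± 6.21 against 22.6 ± 4.74 CPM), the Wnt target Sp5 (257 ± 57.1 against 102 ± 23.2 CPM) and Ccnd2 (1113 ± 122 against 457 ± 114 CPM). Ccnd1 went the other way, at 86.8 ± 25.8 CPM against 307 ± 144 CPM, and Otx2, a factor of the posterior cerebellar rhombic lip, stood at 417 ± 92.8 CPM against 215 ± 45.5 CPM.

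Against the 3250 non-dividing Hox-negative cells, the genes highest in the dividing cells were those of mitosis, as the rule implies: Nusap1 at 325 against 2.07 CPM, Esco2 at 139 against 0.475 CPM and Hmmr at 148 against 0.818 CPM. The lowest were genes of postmitotic neurons, led by Calb2 (6.31 ± 7.59 against 183 ± 119 CPM), Nefl (161 ± 82.5 against 1478 ± 824 CPM) and Mapt (91.3 ± 38.5 against 589 ± 146 CPM). Of 3713 genes at 50 CPM or more, 1433 (38.6%) were higher and 1425 (38.4%) lower in all 6 libraries.

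**Figure D4:**
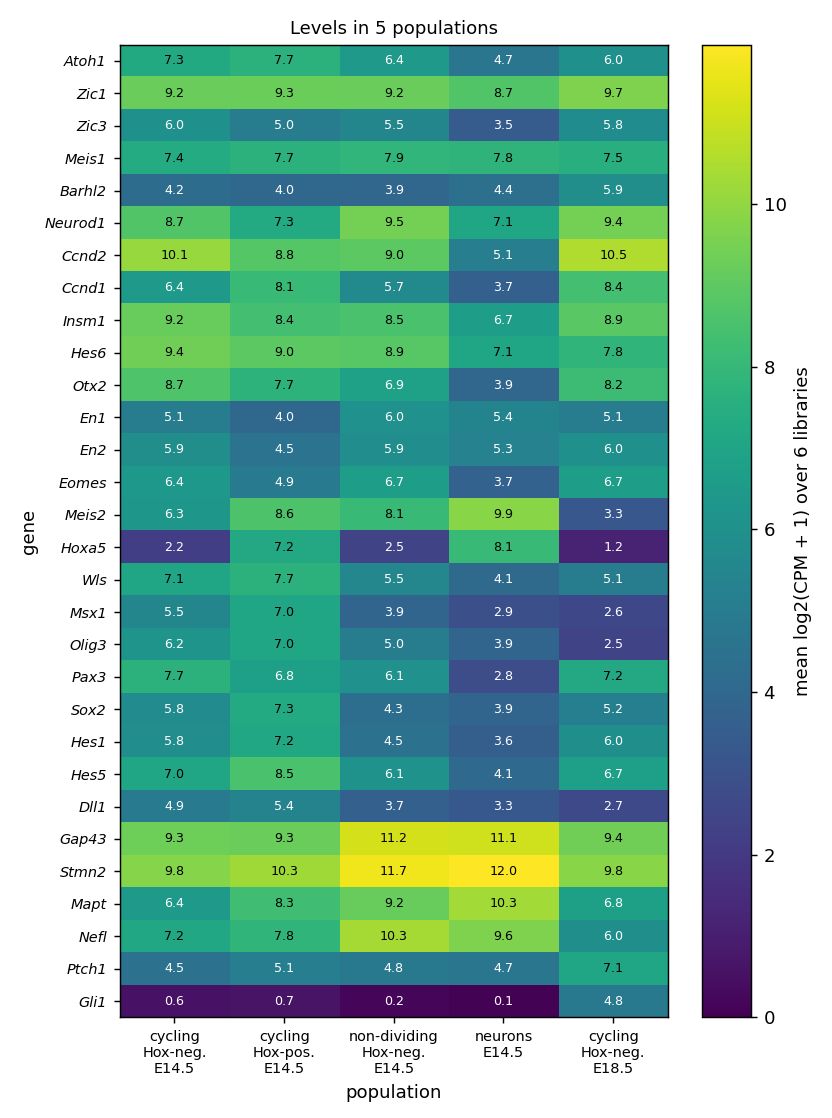
Mean log2(CPM + 1) over 6 libraries (colour and printed value) of 30 genes (rows) in the granule progenitor-like cells, Hox-positive dividing cells, non-dividing Hox-negative cells and neurons at E14.5 and in cells of the same rule at E18.5 (columns), to be read along a row. Crossing from the first column to the last, Gli1 and Ptch1 are higher at E18.5, and Msx1, Olig3, Wls and Dll1 are higher at E14.5.

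The mutant effect in the Hox-positive dividing cells was set beside that in the Hox-negative ones. In the Hox-positive cells, 2 of 11190 genes were called without the pairs (0.0179%), Hrk, a pro-apoptotic gene, and Kitl, and 184 with them (1.64%). Hrk stood at 7.39, 9.89 and 7.5 CPM in Hox-positive controls and 32.7, 44.6 and 29.6 CPM in mutants, and in the Hox-negative cells at 3.96, 1.75 and 4.68 CPM and 8.75, 5.86 and 8.96 CPM (edgeR, adjusted p = 0.053 in the Hox-negative cells). Rab15 in Hox-positive cells was at 51.2, 57.3 and 30.2 CPM in controls and 9.82, 20.1 and 7.70 CPM in mutants, and Gap43 and Dll1 were also called in the same direction in both populations in the paired fits. A test of the difference between the effects (limma, 10307 genes) called no gene (0.0%), with 587 at an unadjusted p under 0.05. On simulated counts this test recovered 23% of 2-fold and 99% of 4-fold differences, so the lack of calls does not show equal effects. The smallest p was that of Sez6l, which stood at 12.3, 17.2 and 15.2 CPM in Hox-positive controls and 14.2, 17.2 and 19.7 CPM in mutants, a difference of effects of -1.19 ± 0.14 (SE; limma, adjusted p = 0.486).

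Cells taken by the same rule at E18.5 numbered 10893, and they were compared with the E14.5 cells over all 12 libraries with genotype in the fit. Stage, litter and collection day move together in this comparison and cannot be told apart. The median UMIs per cell were 15230.5 to 22916 at E18.5 and 22358 to 28218.5 at E14.5, under a rule on raw UMIs. Doublets were not scored at E18.5. Of 10410 genes, 644 were called at an adjusted p under 0.05 and a 2-fold difference (6.19%), 279 of them higher at E14.5 (2.68%) and 365 lower (3.51%; edgeR quasi-likelihood test). Levels are means over 6 libraries with their SD, and log2 differences are E14.5 over E18.5.

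Of 17 tested genes of the Sonic hedgehog pathway, 7 were called lower at E14.5 (all genes: 3.51%) and 1 higher (2.68%). Gli1, a transcription factor that is itself a target of the pathway, stood at 0.536 ± 0.349 CPM at E14.5 and 27.6 ± 2.30 CPM at E18.5 (log2 difference -5.52 ± 0.18, SE; edgeR, adjusted p = 1.13e-10). It had a UMI in at most 2.49% of the unthinned E14.5 cells of a library. It thus entered the test only through E18.5, where it is high, and its p is no independent support. Its place among the 7 rests on the same entry. Ptch1, the receptor and a target, stood at 22 ± 4.60 against 136 ± 12.2 CPM (-2.52 ± 0.12, SE). Ptch1 had a UMI in 15.9% of the thinned E14.5 cells and in 16.9% of neurons. Gli2 (-1.69), Sufu (-1.01), Sfrp1 (-2.35) and Ccnd1, at 86.8 ± 25.8 against 332 ± 25.4 CPM (-1.87 ± 0.15, SE), were lower as well. Cdon, a co-receptor, was the gene called higher (log2 difference 1.64), and the signal transducer Smo (-0.29) and the repressor Gli3 (0.41) did not reach the 2-fold limit.

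Of 9 tested genes of the rhombic lip and roof plate, 7 were called higher at E14.5 (all genes: 2.68%) and 1, Bmp7, lower (3.51%). Msx2 stood at 63.5 ± 32.3 against 1.92 ± 0.447 CPM (log2 difference 5.04 ± 0.32, SE), Olig3 at 77.8 ± 33.9 against 4.68 ± 1.30 CPM (4.09 ± 0.27, SE), Wnt1 at 19.3 ± 12.5 against 0.900 ± 0.522 CPM and Wls at 145 ± 70.1 against 33.0 ± 4.39 CPM. Ttr, at 844 ± 772 against 2.83 ± 3.60 CPM, is among these 7, and its levels in neurons are given above. Msx2, Wnt1 and Ttr, near 0 at E18.5, entered the test only through E14.5, where they are high, and their calls are no independent support. Olig3 was also low at E18.5, and its call is to be read with the same caution. Of 25 genes of the Wnt and BMP pathways, 10 were called higher and 1 lower, against the same shares of all genes, among them the BMP target Id3 at 139 ± 70.7 against 3.43 ± 1.65 CPM and the Wnt target Axin2 at 89.3 ± 31.0 against 35.4 ± 5.6 CPM. Id3 too entered the test only through E14.5, where it is high. Its call is no independent support, and the count of 10 includes it.

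Atoh1 was higher at E14.5, at 157 ± 28.5 against 63.1 ± 10.0 CPM (log2 difference 1.38 ± 0.10, SE; edgeR, adjusted p = 9.38e-08). Dll1, at 30.6 ± 12.8 against 5.34 ± 0.867 CPM, and Hes6, a target of proneural factors, at 673 ± 122 against 228 ± 14.4 CPM, were higher with it. Of 31 tested genes of the granule lineage list, 7 were called lower at E14.5 (all genes: 3.51%) and 2 higher (2.68%). Those called lower included Barhl2 (19.1 ± 6.91 against 59.9 ± 3.06 CPM), the nuclear factor I gene Nfix (210 ± 22 against 553 ± 40.5 CPM), Mfap4 (85.7 ± 24.4 against 368 ± 33.8 CPM) and Pde1c (45.9 ± 3.66 against 144 ± 11.2 CPM). Zic1 and Neurod1 were below the 2-fold limit, with log2 differences of -0.36 and -0.69.

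The largest differences on the E18.5 side included those of Tbata (0.273 ± 0.200 against 42.6 ± 8.48 CPM), Hpca, a neuronal calcium sensor (1.96 ± 0.693 against 88.9 ± 12.8 CPM), and Lhx1 (8.24 ± 1.47 against 142 ± 24.4 CPM). On the E14.5 side they included those of Pcp4, a calmodulin-binding protein (321 ± 204 against 13.3 ± 4.58 CPM), Hmga2, a chromatin protein of early progenitors (25.9 ± 17.0 against 0.888 ± 0.312 CPM), and Sp9 (7.76 ± 3.47 against 0.348 ± 0.190 CPM). Tbata and Hpca entered the test only through E18.5, and Hmga2 and Sp9 only through E14.5. These are the stages where they are high, so their calls are no independent support. The cell cycle inhibitor Cdkn1c (67.9 ± 26.2 against 17.0 ± 2.13 CPM) was higher at E14.5 and Cdk6 (7.02 ± 1.69 against 87.5 ± 8.92 CPM) was lower. Of the 45 S phase and 51 mitotic genes, 1 in each list was called, Dscc1 and Lbr, against 6.19% of all genes, and Dscc1 lost its call under at least 1 alternative.

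**Figure D5:**
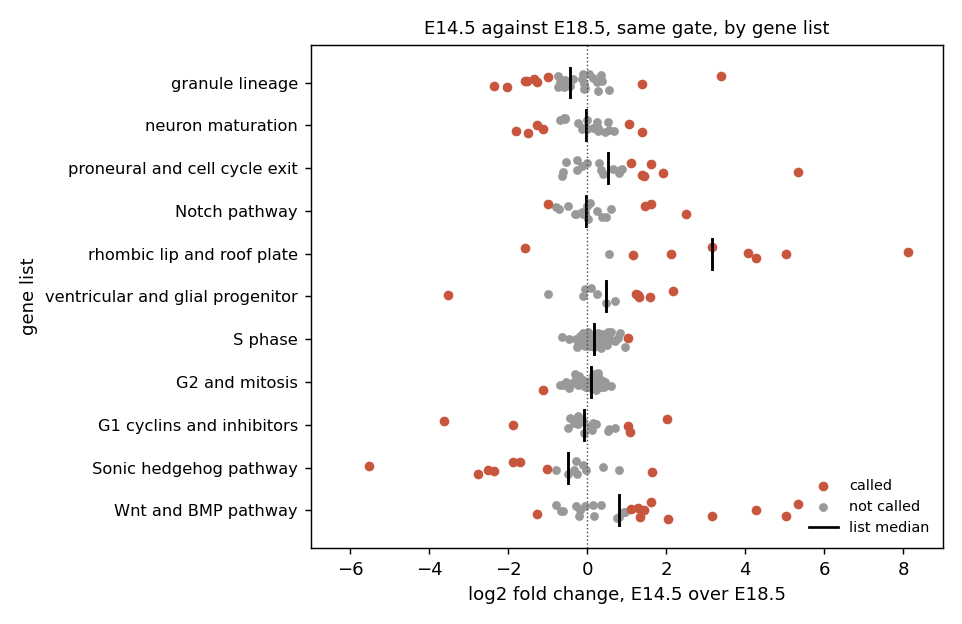
Log2 fold change of E14.5 over E18.5 in cells of the same rule (x axis) for the genes of 11 lists (y axis), with 1 point per gene, called genes in red and a black bar at each list's median. The rhombic lip and roof plate list has a median of 3.16, and called Sonic hedgehog genes lie left of 0 down to -5.52 for Gli1, with Cdon at 1.64 on the other side.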

How the data were processed

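Per the labels, 10x Genomics 3′ chemistry (v3.1) was used and reads were aligned to mm10 with Cell Ranger 5.0.1. The headers of 2 E14.5 control files, replicates 1 and 2, name version 3.1.0. The deposited values are raw UMI counts per gene and cell that the authors made with Cell Ranger, and they were used as deposited. Kept cells had at least 1000 genes and under 10% mitochondrial UMIs. UMIs were summed per embryo and population, and the sums of genes found in at least 10% of cells were tested with edgeR 4.0.16 (TMM, quasi-likelihood test, R 4.3.3), limma 3.58.1 for the difference of effects, and DESeq2 1.42.0 as an alternative. Doublets were scored with Scrublet through scanpy 1.11.5 and kept in the main fits. The scripts were tested on simulated counts. The members and gene lists were chosen with earlier results of these data known.

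Same-numbered embryos were taken as littermate pairs, since the labels give 1 embryo per genotype with a littermate control. Their deviations from the group means correlated across genes at 0.447, 0.576 and 0.583, and those of other pairings at -0.483 to 0.0158. Deviations within a genotype cancel out for each gene, so positive values for same-numbered embryos push the other pairings down by arithmetic. These correlations cannot tell a shared litter from a shared preparation or run. Paired calls are printed with the adjusted p of the unpaired main fit. Genes named were the rule and list genes, up to 10 calls per direction, by size of change, among genes without overlap between groups, or the 10 of smallest p where fewer were called. Other genes were chosen after their values were seen. Positions are those of GENCODE M21 (GRCm38) and promoters are from RefSeq (GRCm38.p6). The values of 1 gene of the lists are not reported here.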

Additional observations from a re-analysis of the deposited data

Results flagged for a closer look

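Cells that met the same rule were found outside the embryonic libraries. In the pontine nuclei sorted at postnatal day 5, which enter no comparison here, 193 of 6608 kept cells of replicate 2 (2.92%, Wilson 95% interval 2.54 to 3.35%) and 9 of 11300 of replicate 1 (0.0796%, interval 0.0419 to 0.151%) met it. For scale, a count of 0 would allow up to 0.0454% and 0.0265%, a comparison made after the cells had been counted. These intervals cover counting error only. Of the 193 cells, 99.5% had a UMI of Zic1, 93.8% of Neurod1, 21.8% of Atoh1 and 26.4% of Gli1, and of the 9 cells 77.8%, 44.4%, 0.0% and 0.0%, in cells that were not thinned. The 2 libraries were each pooled from several pups, and the cause of the difference between them was not tested.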

How the results depend on the processing

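Depth limits the rarer genes: mutant embryo 2 gave only 107 cells, and all libraries of a genotype number 3, so an exact test cannot go below p = 0.1. The share of kept cells that met the rule differed between genotypes by 0.882 points, and by -0.198 to 2.54 when 1 embryo was left out (-0.0109 without control embryo 2, -0.198 without mutant embryo 3), and by -0.858 with only Cell Ranger 5.0.1 libraries, which leave 1 control embryo against 3 mutants. The dividing share differed by 3.94 points, and by -0.740 to 8.99 when 1 embryo was left out. With the replicate block, which leaves the mean differences of 0.882 and 3.94 points as they are by arithmetic, the exact sign-flip test gave p = 0.5 for each. The other alternatives, a 5% mitochondrial limit, removal of the highest doublet scores and the rule after thinning, kept both directions, but the first difference fell to 0.421 points and the second to 0.341 with the rule after thinning, and the second was 1.16 with only Cell Ranger 5.0.1 libraries.

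The count of genes called between genotypes was 0 without the pairs, 50 with the replicate block and 13 with DESeq2, and 0 to 3 when 1 embryo was left out. Alternatives added after seeing the data gave 86 with the block and the highest doublet scores removed, 42 with the block and equal cell numbers, and 238, 34 and 247 with the block when pair 1, 2 or 3 was left out. These counts hold different genes: of the 51 genes named or called, 22 were called with equal cells, 22 without pair 2, 45 without pair 3 and 45 without the highest doublet scores. Upper-quartile scaling, no detection filter, the 5% limit, the unpaired doublet removal, thinning, equal cells and Cell Ranger 5.0.1 libraries alone gave 0, the last with 1 control embryo, which is assumed to vary like the mutants, so that its 0 says nothing of stability. In Hox-positive cells the count was 2, with 184 under the block, 0 with Cell Ranger 5.0.1 libraries alone and 0 to 29 when 1 embryo was left out. The difference of effects gave 0 in each alternative. Between stages 644 genes were called, 2050 without the detection filter, which tested 18316 genes, and 614 to 695 under the others, with 650 under the replicate block. Of the 51 genes named or called between genotypes and the 90 between stages, none changed direction, but 13 of the stage genes (Ccnd3, Dcx, Dscc1, Egr1, Fabp7, Hey1, Hoxa5, Id1, Lmx1a, Rab15, Sufu, Tlx3 and Tubb3) lost their call under at least 1 alternative, 7 of them with only Cell Ranger 5.0.1 libraries and 6 with control libraries only. The cause of these differences was not tested.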
